A study of Saccharomyces cerevisiae with 4 samples.

Results

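The genes described here encode the proteins of the small (37S) subunit of the mitochondrial ribosome of budding yeast, and 33 of them were taken by identifier from the 6673 genes listed in each library. They carry the names MRP, MRPS and RSM, with NAM9, PET123, SWS2, EHD3 and YMR31 (a gene once listed with the subunit and now placed in another complex), and all 33 had a mean RPKM (reads per kilobase of gene and per 1000000 reads) of at least 1. RNA was sequenced from a strain in which *PUF3* was deleted (*PUF3Δ*, 2 libraries) and from a wild type strain (WT, 2 libraries). Both strains were moved from overnight YPD cultures into YPEG, in which cells live on ethanol and glycerol by respiration, and harvested at the same density without any further treatment. The labels give both strains the alleles his3Δ1, leu2Δ0, met15Δ0 and ura3Δ0 and mating type a under the name BY4742, whereas the study's methods name BY4741. The sources do not say whether the replicates were separate cultures or whether the deletion was 1 clone, so the p-values measure the spread between libraries, which may be technical.

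The mitochondrial ribosome makes the few proteins encoded in mitochondrial DNA, most of them membrane subunits of the respiratory chain and of ATP synthase. All but 1 of its proteins are encoded in the nucleus, made in the cytosol and imported. The subunit is thus put together from products of many genes and an RNA made inside the organelle. Puf3p is an RNA-binding protein that recognizes the element TGTANATA (U in place of T in the RNA) downstream of coding regions, and mRNAs for mitochondrial ribosomal proteins are its best known targets. The protein of the 37S subunit encoded in mitochondrial DNA, VAR1, was not analysed here, because the values used are for genes of the 16 nuclear chromosomes.

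*PUF3* (YLL013C) had an RPKM of 0.113 and 0.280 in *PUF3Δ*, from 2 and 6 reads, against 29.2 and 35.0 in WT, from 569 and 761 reads. The libraries held between 6703910 and 8228693 reads on genes. Replicates differed beyond sampling noise, with a chi-square per degree of freedom of 4.60 over 5726 genes in *PUF3Δ* and 11.7 over 5838 genes in WT. LYS2, a gene that BY4742 is known to lack, had 1 and 4 reads in *PUF3Δ* and 1 and 1 in WT. The alpha-factor gene MFALPHA1 had an RPKM of 1662 and 1834 in *PUF3Δ* and 5030 and 4012 in WT, and the a-cell gene STE2 had 4.60 and 4.75 in *PUF3Δ* and 15.4 and 13.5 in WT. MET17, the gene of the met15Δ0 allele, had 125 and 110.3 in *PUF3Δ* and 512 and 534 in WT. These levels go against mating type a and met15Δ0 in the labels, for both strains.

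The element of Puf3p was present downstream of nearly every 37S gene. On the coding strand of the R64 reference, within 200 nt after the stop codon, 31 of the 33 genes (93.9%) had TGTANATA, against 14.1% of the 5972 nuclear coding genes that could be matched to R64. On the opposite strand of the same windows, 5 of the 33 genes (15.2%) had these letters, against 13.2% of all matched genes. A C placed 2 bases before the element was found in 23 of the 33 genes (69.7%), against 4.24% of all matched genes. The 37 elements lay between 8 and 139 nt after the stop codon, with a median of 56 nt, and none of them fell in an annotated coding region. The 5th base was A in 21 elements, T in 9, C in 7 and G in 0. One element was found in 26 genes, 2 elements in each of MRPS5, MRPS16, MRP1 and RSM24, and 3 elements in RSM19. The genes without the element in this window were RSM22 (YKL155C) and YMR31 (YFR049W).

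The elements of the 5 genes with the largest increases in *PUF3Δ* are shown because they carry the element in several forms. They are given 5′ to 3′ as in R64, with the element in capitals.
RSM19, 10 nt after the stop codon, chrXIV:695027-695050, minus strand: ggatctagTGTATATAgatttcta
RSM19, 38 nt after the stop codon, chrXIV:694999-695022, minus strand: atatatcaTGTAAATAagatcaag
RSM19, 66 nt after the stop codon, chrXIV:694971-694994, minus strand: actcgggcTGTATATAtatatata
RSM23, 79 nt after the stop codon, chrVII:267629-267652, minus strand: atttctcaTGTACATAtaaataga
EHD3, 56 nt after the stop codon, chrIV:523140-523163, minus strand: tctatgcaTGTAAATAataaaagt
RSM28, 32 nt after the stop codon, chrIV:1438039-1438062, plus strand: tacataccTGTAAATAtctagtac
MRPS12, 74 nt after the stop codon, chrXIV:694272-694295, minus strand: caacctttTGTAAATAgcaatgac

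The elements of 3 genes that were lower in *PUF3Δ* as deposited, among them the one with the largest decrease, are shown for comparison. MRPS17 has A as the 5th base and RSM25 has T, and MRPS16 has one element of each kind.
MRPS16, 86 nt after the stop codon, chrXVI:528884-528907, minus strand: gtatatgtTGTATATAtgttttac
MRPS16, 127 nt after the stop codon, chrXVI:528843-528866, minus strand: atcagactTGTAAATAatacatct
MRPS17, 56 nt after the stop codon, chrXIII:636220-636243, minus strand: ctacactcTGTAAATAtatacaac
RSM25, 39 nt after the stop codon, chrIX:187936-187959, minus strand: aaccaaccTGTATATAattaaaaa

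**Figure D1:**
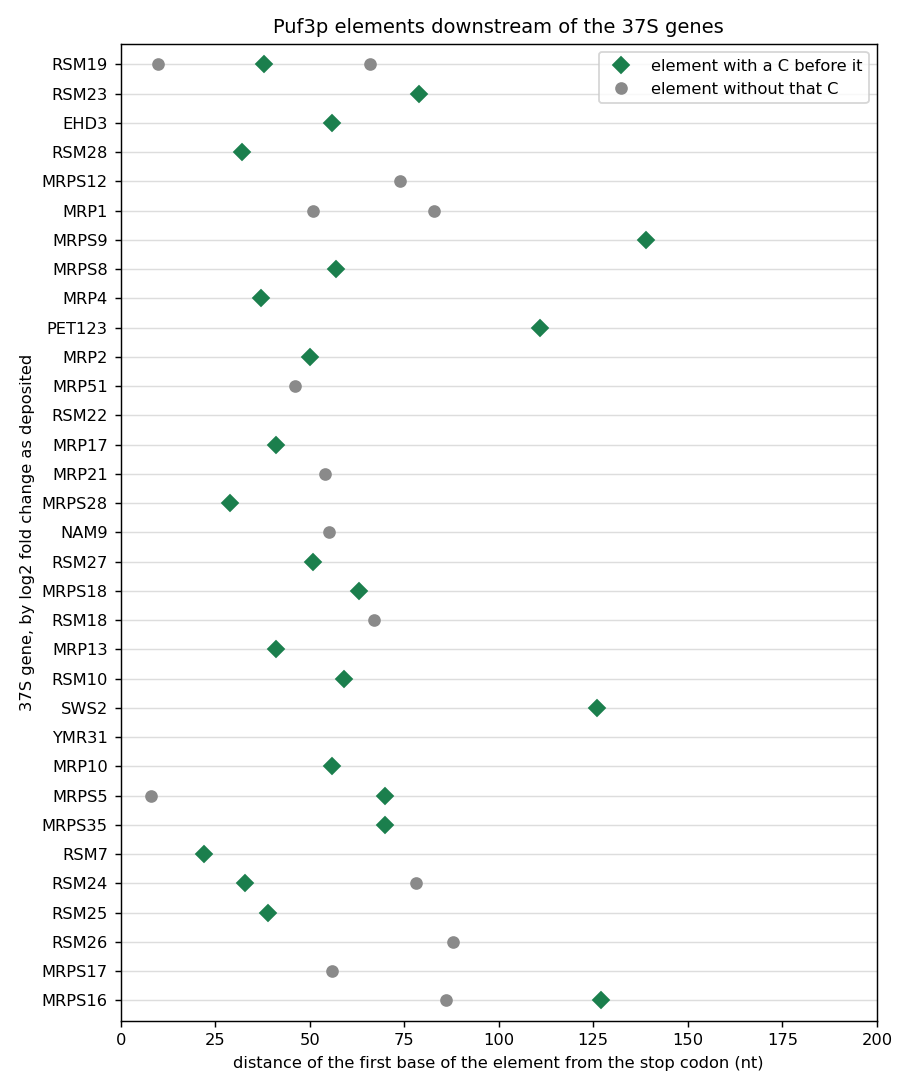
Puf3p elements downstream of the 33 genes, ordered by log2 fold change with the largest increase at the top; the horizontal axis is the distance of the element's first base from the stop codon in nt, diamonds are elements with a C 2 bases before them and circles are those without. The 37 elements lie between 8 and 139 nt, RSM19 at the top has 3, and RSM22 and YMR31 have none.

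The levels of the 37S genes in YPEG spanned more than an order of magnitude. In RPKM, which is per length, they ran between 29.9 and 582 in *PUF3Δ* replicate 1 and between 32.1 and 572 in replicate 2, against 27.7 to 379 and 30.1 to 411 in the WT replicates. The medians over the genes were 120.0 and 121 in *PUF3Δ* and 115 and 120.0 in WT. Together, the genes took 0.379% and 0.395% of the reads in *PUF3Δ* and 0.351% and 0.345% in WT, without overlap between the strains (with 2 libraries each, an exact permutation test can give no p below 0.333). In RNA from a whole culture, fewer cells of a kind and less RNA per cell cannot be told apart.

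MRPS12 (YNR036C), the counterpart of the bacterial protein S12 at the decoding site, was the highest 37S gene in all 4 libraries. Its RPKM was 582 and 572 in *PUF3Δ* and 379 and 411 in WT. Next by the mean over the 4 libraries came MRP4 (YHL004W), the counterpart of S2, with an RPKM of 314 and 319 in *PUF3Δ* and 272 and 240.0 in WT. EHD3 (YDR036C), which is related in sequence to hydrolases of valine breakdown, followed, with 311 and 318 in *PUF3Δ* and 195 and 194 in WT. For all 3 genes the *PUF3Δ* libraries lay above those of WT, as they did for 24.9% of all genes tested. The order by the mean over the 4 libraries includes the *PUF3Δ* values. By the WT mean alone, YMR31 and MRP10 came next after MRPS12. For both of these the *PUF3Δ* libraries lay below those of WT, as for 62.6% of all genes tested.

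RSM22 (YKL155C), which is related to methyltransferases and is the longest 37S gene at 1887 nt, was the lowest by that mean. Its RPKM was 31.8 and 33.01 in *PUF3Δ* and 27.7 and 30.1 in WT. RSM26 (YJR101W), of the family of manganese superoxide dismutase, had 29.9 and 32.1 in *PUF3Δ* and 44.8 and 40.9 in WT. MRP21 (YBL090W), the counterpart of S21, had 58.3 and 62.6 in *PUF3Δ* and 57.1 and 59.3 in WT, and its libraries overlapped between the strains. Of the 32 neighbouring pairs in the order of levels, 19 pairs in *PUF3Δ* and 21 in WT had overlapping libraries, so that much of the middle of the order is not resolved. The deposited spans of RSM18 and RSM23 are 192 and 114 nt longer than the coding regions in R64, which bears on the rank of these genes. Whether reads from these stretches bear on the comparison of strains was not tested.

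**Figure D2:**
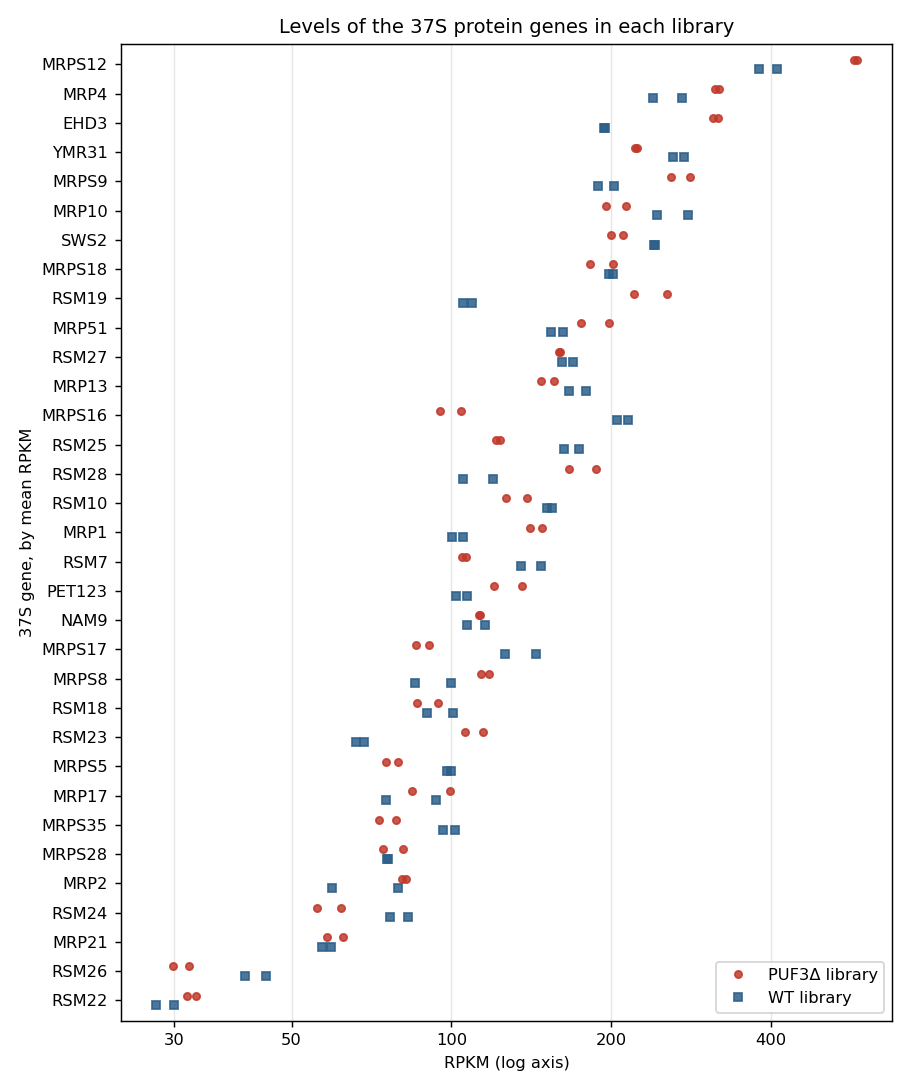
RPKM (log axis) of the 33 genes in each library, ordered by the mean over the 4 libraries; red circles are *PUF3Δ* libraries and blue squares are WT libraries. MRPS12 is highest and RSM22 lowest by the mean, and RSM19 and MRPS16 show the widest separation of the strains, in opposite directions.

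The order of levels was kept in part between the strains, with a Spearman's rho of 0.82 across the 33 genes, which are not independent replicates, against 0.995 between the *PUF3Δ* replicates and 0.986 between the WT replicates. MRPS16 (YPL013C), the counterpart of S16, held rank 22 in *PUF3Δ* and rank 6 in WT. RSM19 (YNR037C), the counterpart of S19 in the head of the small subunit, held rank 5 in *PUF3Δ* and rank 19 in WT. The ratio of RSM19 to MRPS16 within a library does not change when all values of a library are multiplied by the same factor. It was 2.68 and 2.12 in *PUF3Δ* and 0.509 and 0.513 in WT. These genes had the largest increase and the largest decrease in these same libraries, so that a difference in their ratio follows from the choice.

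The study compared the strains to ask how Puf3p acts on the level of its targets. With limma on log2(RPKM + 1), fitted over 5860 genes, and a Benjamini-Hochberg adjusted p threshold of 0.05, 11 of the 33 genes rose in *PUF3Δ*, 11 fell as deposited (1 of them, MRPS16, also under another scaling of the libraries) and 11 did not pass. Over all genes tested, 18.9% were called higher and 54.2% lower. For 13 of the 37S genes the lower *PUF3Δ* value exceeded the higher WT value, against 24.9% of all genes tested, and for 14 the reverse held, against 62.6%. The median log2 fold change of the 37S genes was 0.02, and that of all genes was -0.39, so 27 of the 33 genes lay above the median gene. Among the 3775 genes tested whose level lay within the range of the 37S genes, the median was -0.37.

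The direction of the small changes depends on the scaling of the libraries. Median-of-ratios scaling, which sets the typical gene to no change, moved the median of all genes up by 0.37 and that of the 37S genes to 0.41. Since the scaling shifts all genes alike, no gene called higher as deposited lost its call (18.9% of all genes were higher under both scalings), and the distance of a gene from the median gene was nearly fixed. Of the 11 decreases, only that of MRPS16 was called under both. Over all genes, 1945 of the 3175 decreases were called under both (33.2% of all genes tested). After median-of-ratios scaling, 20 of the 37S genes were called higher and 1 lower, against 33.9% and 33.2% of all genes. Leaving out 1 *PUF3Δ* library lowered the counts of the 37S genes and of all genes. Without replicate 1, 8 of the 37S genes were higher and 7 lower, against 14.1% and 44.9% of all genes, and without replicate 2, 7 were higher and 6 lower, against 14.2% and 46.8%.

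In the cytosolic 40S list, all 57 genes were lower in *PUF3Δ*, against 54.2% of all genes tested. The summed share of reads of the 57 genes was 2.22% and 2.31% in *PUF3Δ* and 4.93% and 4.43% in WT. RPKM values are relative to all reads on genes, and the part of this difference in the values of other genes was not tested.

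**Figure D3:**
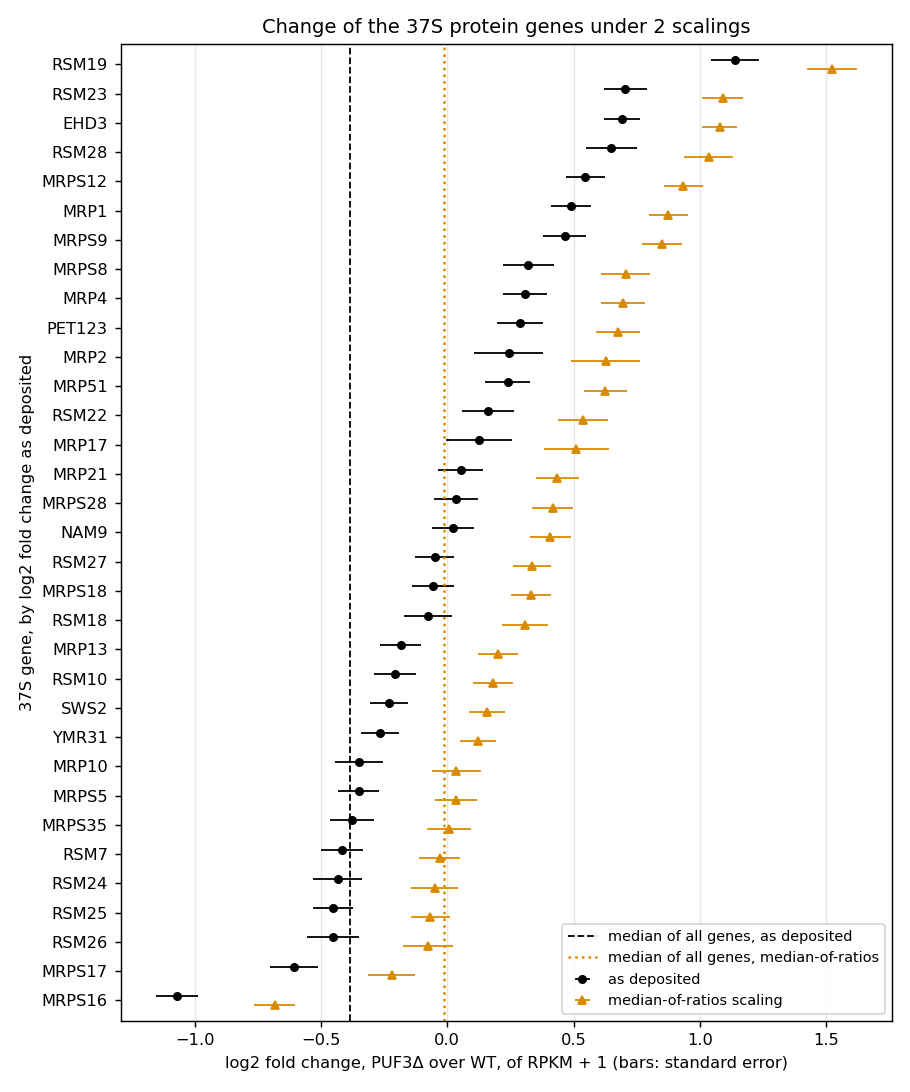
Log2 fold change (*PUF3Δ* over WT, of RPKM + 1) of each 37S gene, with its standard error; black circles are values as deposited and orange triangles those after median-of-ratios scaling, and the vertical lines mark the medians of all genes, -0.39 and -0.01. RSM19, at 1.14, and MRPS16, at -1.07, lie farthest from 0 as deposited.

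Among the 14 proteins that are shared with the cytosolic ribosome and with bacteria, 5 genes were higher and 4 lower. Over all genes tested, the shares were 18.9% and 54.2%. The median log2 fold change of these 14 genes was 0.03. RSM19 rose most of all 37S genes. Its RPKM was 255 and 221 in *PUF3Δ* (474 and 496 reads) and 109 and 105 in WT (223 and 240 reads), without overlap. The log2 fold change was 1.14 (SE, standard error, 0.09, limma adjusted p = 5.2e-05), and the mean in *PUF3Δ* was 2.22 times that in WT. RSM19 and MRPS12 are neighbours on chromosome XIV, on the same strand, with 229 nt between the coding regions, and the 3 elements of RSM19 lie in this stretch.

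MRPS12 rose as well, by a log2 fold change of 0.55 (SE 0.08, limma adjusted p = 5.9e-04), and its share of the summed RPKM of the 37S genes was 11.7% and 11.2% in *PUF3Δ* and 7.93% and 8.72% in WT. MRPS9 (YBR146W), the counterpart of S9, had an RPKM of 259 and 282 in *PUF3Δ* and 202 and 189 in WT, a log2 fold change of 0.46 (SE 0.08, limma adjusted p = 0.0019). MRPS8 and MRP4 rose less, with log2 fold changes of 0.32 and 0.31, and each lost its call when either *PUF3Δ* library was left out (adjusted p between 0.080 and 0.13 for both genes), as did MRPS8 without WT replicate 1 (adjusted p = 0.060).

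MRPS17 (YMR188C), the counterpart of S17, had the largest decrease of this class. Its RPKM was 86.0 and 90.6 in *PUF3Δ* and 126 and 144 in WT, a log2 fold change of -0.61 (SE 0.10, limma adjusted p = 9.8e-04). After median-of-ratios scaling it was -0.22 and was not called (adjusted p = 0.073, the highest of the 11 alternatives, which reached down to 4.7e-04). RSM7 (YJR113C), the counterpart of S7, had 105 and 107 in *PUF3Δ* and 148 and 135 in WT, a log2 fold change of -0.42 (SE 0.08) that became -0.03 after median-of-ratios scaling. RSM7 overlaps the listed gene YJR114W over 317 nt, and its reads cannot be told apart from those of YJR114W unless strand was used. MRPS5 and SWS2 had log2 fold changes of -0.35 and -0.23 as deposited, which turned to 0.03 and 0.16 under median-of-ratios scaling. Without *PUF3Δ* replicate 2 the limma adjusted p was 0.070 for MRPS5 and 0.089 for SWS2, and without replicate 1 it was 0.19 for SWS2.

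NAM9 (YNL137C), the counterpart of S4, was first found through suppressors of stop codons in mitochondrial genes. Its RPKM was 113 and 113 in *PUF3Δ* and 115 and 107 in WT, and the log2 fold change of 0.02 (SE 0.08) did not pass the test as deposited. MRP2, MRPS28, MRPS18 and RSM10 did not pass either, with log2 fold changes between -0.21 and 0.24. Under median-of-ratios scaling, NAM9 (0.41, limma adjusted p = 0.0042), MRPS28 (0.42, adjusted p = 0.0040), MRP2 (0.63, adjusted p = 0.0067) and MRPS18 (0.33, adjusted p = 0.0087) were called higher, and RSM10 was not (0.18, adjusted p = 0.081). MRP2 was among the least certain values, with 80.8 and 82.2 in *PUF3Δ* and 79.3 and 59.5 in WT, and it also passed without WT replicate 1 (limma adjusted p = 0.0038), under quantile normalization (adjusted p = 0.0088) and after length correction (adjusted p = 0.0059).

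Among the 5 proteins shared with bacteria only, MRPS16 had the largest decrease of all 37S genes. Its RPKM was 95.1 and 104 in *PUF3Δ* (234 and 310 reads) and 215 and 205 in WT (581 and 620 reads), without overlap. The log2 fold change was -1.07 (SE 0.08, limma adjusted p = 4.3e-05), and it stayed at -0.68 after median-of-ratios scaling. MRP51 (YPL118W), whose gene is known from interactions with the leaders of the COX2 and COX3 mRNAs, had 176 and 198 in *PUF3Δ* and 162 and 154 in WT, a log2 fold change of 0.24 (SE 0.09, limma adjusted p = 0.044). Its call was lost without WT replicate 2 (adjusted p = 0.10) and without *PUF3Δ* replicate 1 (adjusted p = 0.058) or 2 (adjusted p = 0.31). MRP17, RSM18 and MRP21 had log2 fold changes of 0.13, -0.08 and 0.05, which did not pass, and the libraries of the strains overlapped for all 3. Under median-of-ratios scaling these became 0.51, 0.31 and 0.44, and all 3 were called higher (limma adjusted p = 0.012, 0.023 and 0.0038).

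Among the 13 proteins particular to mitochondrial ribosomes, 5 genes were higher and 5 lower, against 18.9% and 54.2% of all genes tested. The median log2 fold change of these 13 genes was -0.05. RSM23 (YGL129C), the counterpart of the human protein DAP3, had an RPKM of 106 and 115 in *PUF3Δ* and 66.0 and 68.5 in WT. Its log2 fold change was 0.71 (SE 0.09, limma adjusted p = 2.8e-04). EHD3 followed with a log2 fold change of 0.69 (SE 0.07, limma adjusted p = 1.4e-04), 1.62 times the WT mean. RSM28 (YDR494W) had an RPKM of 166 and 188 in *PUF3Δ* and 105 and 120.0 in WT, a log2 fold change of 0.65 (SE 0.10, limma adjusted p = 9.6e-04). For these 3 genes the strains did not overlap.

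MRP1 (YDR347W) and RSM26 both belong to the family of manganese superoxide dismutase and moved apart. MRP1 had an RPKM of 141 and 148 in *PUF3Δ* and 100.2 and 105 in WT, a log2 fold change of 0.49 (SE 0.08, limma adjusted p = 0.0013). RSM26 had a log2 fold change of -0.45 (SE 0.10, limma adjusted p = 0.0056), and this moved to -0.07 under median-of-ratios scaling and to 0.0041 under quantile normalization. Its call was lost without *PUF3Δ* replicate 1 (limma adjusted p = 0.056). PET123 (YOR158W), found through its interaction with PET122, an activator of COX3 translation, had 120.0 and 136 in *PUF3Δ* and 107 and 102 in WT, a log2 fold change of 0.29 (SE 0.09, limma adjusted p = 0.025). The call of PET123 was lost without WT replicate 2 (adjusted p = 0.056) and without *PUF3Δ* replicate 2 (adjusted p = 0.20).

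RSM25 (YIL093C) had an RPKM of 124 and 121 in *PUF3Δ* and 163 and 174 in WT, a log2 fold change of -0.45 (SE 0.08), and RSM24 (YDR175C) had 55.7 and 61.9 in *PUF3Δ* and 82.9 and 76.6 in WT, a log2 fold change of -0.43 (SE 0.10). The strains did not overlap for either gene, and the changes moved to -0.07 for RSM25 and -0.05 for RSM24 under median-of-ratios scaling. MRPS35 and MRP10, a small protein with twin CX9C motifs, had log2 fold changes of -0.38 and -0.35 as deposited, which turned to 0.0063 and 0.04 under median-of-ratios scaling. Calls were lost without *PUF3Δ* replicate 1 for RSM24 (limma adjusted p = 0.058) and without replicate 2 for MRPS35 (adjusted p = 0.066) and MRP10 (adjusted p = 0.11). The ratio of RSM23, which rose, to RSM24, which fell as deposited, within a library was 1.90 and 1.85 in *PUF3Δ* and 0.796 and 0.893 in WT. A gene that rose was here paired with one that fell in these same libraries, so that a difference in their ratio follows from the choice. RSM22, MRP13 and RSM27 did not pass the test, with log2 fold changes of 0.16, -0.19 and -0.05, and MRP13 passed as lower without WT replicate 2 (limma adjusted p = 0.037). Under median-of-ratios scaling, RSM22 (0.54, limma adjusted p = 0.0030) and RSM27 (0.34, adjusted p = 0.0070) were called higher, and MRP13 was not (0.20, adjusted p = 0.059).

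YMR31 (YFR049W) was first listed as a mitochondrial ribosomal protein and is now known as KGD4, a subunit of alpha-ketoglutarate dehydrogenase. Its RPKM was 222 and 224 in *PUF3Δ* and 274 and 262 in WT, without overlap. The log2 fold change was -0.27 (SE 0.07, limma adjusted p = 0.015) as deposited, and it was 0.12 and not called under median-of-ratios scaling. Leaving out *PUF3Δ* replicate 1 or 2 ended the call (limma adjusted p = 0.10 and 0.086). The other subunits of that enzyme, KGD1, KGD2 and LPD1, rose in *PUF3Δ*, with log2 fold changes of 1.06, 1.16 and 0.81.

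RSM19, RSM23, EHD3, RSM28, MRPS12, MRP1 and MRPS9 were called higher, and MRPS16 lower, in each of the 11 alternative settings run, including those with 1 library left out. The share of all genes that kept a call in every setting is not given here. These 8 genes have elements between 10 and 139 nt after the stop codon, close to the range of 8 to 139 nt of all 37 elements. Of the 23 genes with the C before an element, 8 were higher and 8 lower, with a median log2 fold change of -0.05. Of the 8 genes with elements of the other kind only, 3 were higher and 2 lower, with a median of 0.04. Over all genes tested, 18.9% were higher and 54.2% lower. By the 5th base of a single element, the medians were 0.05 for A (17 genes), -0.05 for C (5 genes) and -0.29 for T (4 genes), as deposited. These groups were small and their differences were not tested. Outside the 37S genes, the 791 genes tested that have the element had a median of -0.22, and the 4791 matched genes without it had -0.40.

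Changes of all genes ran with gene length in these libraries, with a Spearman's rho of 0.35 over 5860 genes, and 0.22 over the 33 genes. Below 500 nt the 10 genes of the 37S subunit had a median log2 fold change of 0.04, against -0.70 for all 934 genes of that length. Between 500 and 1000 nt the medians were -0.14 for 14 genes of the 37S subunit and -0.61 for all 1484. From 1000 nt to under 1900 nt they were 0.24 for 9 genes of the 37S subunit and -0.39 for all 2041. The 37S median was thus above that of all genes in each range. The part of length in the changes of single genes was not tested, and after a correction for length 15 of the 37S genes were called higher and 5 lower, against 16.6% and 56% of all genes.

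**Figure D4:**
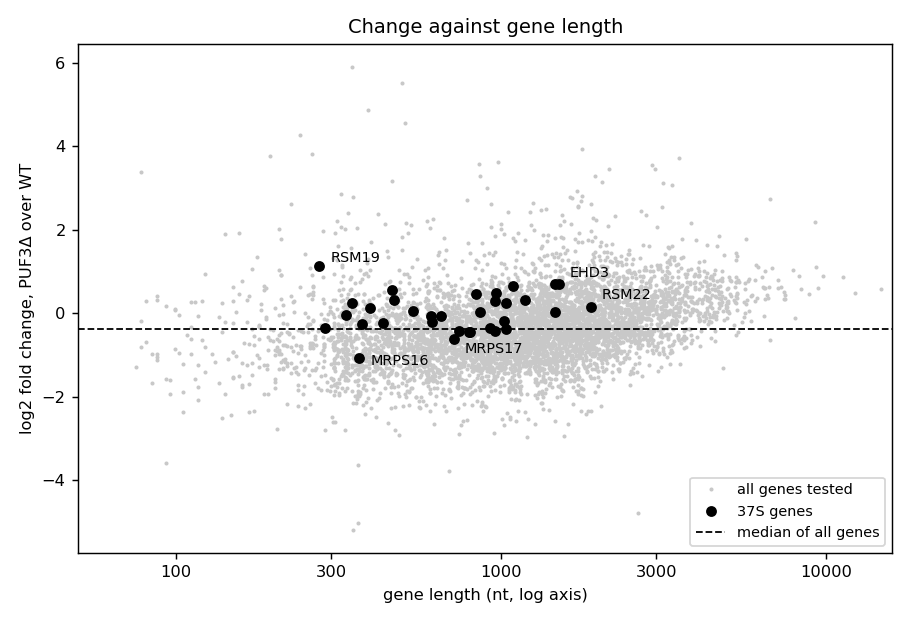
Log2 fold change (*PUF3Δ* over WT, as deposited) against gene length (nt, log axis) for all genes tested (grey) and the 33 genes of the 37S subunit (black), with the median of all genes, -0.39, as a dashed line. Of the 37S genes, 5 of 10 under 500 nt, 5 of 14 between 500 and 1000 nt and 7 of 9 from 1000 nt lie above 0. RSM19 and MRPS16, the farthest from 0, are 276 and 366 nt long.

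The spread among the 37S genes is given as the coefficient of deviation (CD), the standard deviation over genes divided by their mean. The study's methods state a log transformation before the CD for its profiles of many conditions, and give no scale for the CD of the 2 strains. The main values here are on linear RPKM. On the linear scale it was 0.709 and 0.678 in *PUF3Δ* (0.694 ± 0.022, SD, n = 2) and 0.552 and 0.550 in WT (0.551 ± 0.0015, SD, n = 2), without overlap. No exact permutation test of so few libraries can pass the threshold. Without MRPS12, an alternative added after the values were seen, the CD was 0.547 and 0.530 in *PUF3Δ* and 0.502 and 0.469 in WT. On the log scale, as log2(RPKM + 1) of all 33 genes, the CD was 0.131 and 0.127 in *PUF3Δ* and 0.118 and 0.115 in WT. The strains did not overlap, and the gap was smaller (means of 0.129 in *PUF3Δ* and 0.117 in WT). Unlike the linear CD, the CD on the log scale depends on how the libraries are scaled. It is not given here after median-of-ratios scaling.

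Of 44 genes for proteins of the large (54S) subunit, 13 were higher and 13 lower in *PUF3Δ*, against 18.9% and 54.2% of all genes. The median log2 fold change of the 54S genes was -0.01, close to the 0.02 of the 37S genes. Under median-of-ratios scaling, 26 of the 54S genes rose and 3 fell, against 33.9% and 33.2% of all genes. The median of the 54S genes was then 0.38, against 0.41 for the 37S genes. The CD of the 54S genes was 0.776 and 0.749 in *PUF3Δ* and 0.839 and 0.723 in WT, which overlapped, unlike that of the 37S genes. The difference between the subunits was not tested. All 44 genes of the 54S list had the element within 200 nt.

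In the cytosolic 40S list, the counterpart of the 37S subunit in the cytosol, 57 of 57 genes were lower, with a median of -1.19. After median-of-ratios scaling, 51 of them were also lower. Over all genes, 54.2% were lower as deposited and 33.2% under both scalings. The element was found downstream of 2 of these 57 genes. Many of them are pairs of near-identical copies, between which reads could have been split. Their log2 fold changes ran between -2.76 and -0.29.

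The list of 12 factors for assembly of the mitochondrial ribosome and for initiation held 5 higher and 4 lower genes. Of all genes tested, 18.9% were higher and 54.2% lower. IFM1, the initiation factor 2 of mitochondria, had an RPKM of 32.2 and 33.7 in *PUF3Δ* and 7.61 and 11.4 in WT, a log2 fold change of 1.71 (SE 0.18, limma adjusted p = 1.5e-04), above that of any 37S gene. MAM33, an acidic protein of the matrix, had 430.4 and 442 in *PUF3Δ* and 164 and 155 in WT, a log2 fold change of 1.45 (SE 0.08, limma adjusted p = 1.4e-05). MTG3, a GTPase that acts on the 37S subunit, had a log2 fold change of -0.31 as deposited, which turned to 0.07 under median-of-ratios scaling. MRM2 had the largest decrease of the list, -0.68 as deposited (limma adjusted p = 3.3e-04) and -0.30 after median-of-ratios scaling (adjusted p = 0.018). It was the only gene of the list called lower under both scalings, against 33.2% of all genes tested.

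**Figure D5:**
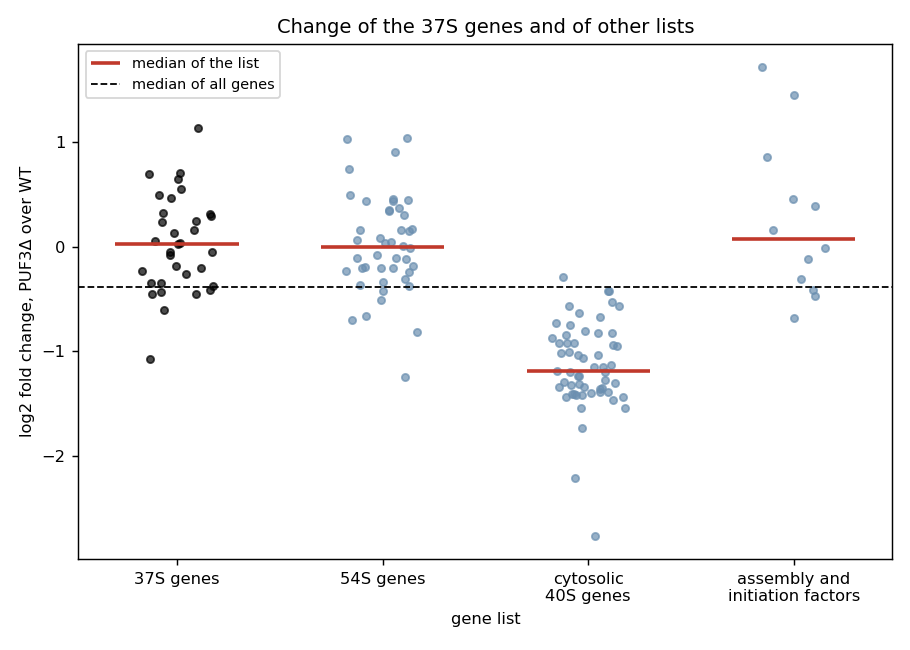
Log2 fold change (*PUF3Δ* over WT, as deposited) of the 33 genes of the 37S subunit and of the 54S, cytosolic 40S and assembly and initiation lists; each point is a gene, red bars are list medians and the dashed line is the median of all genes, -0.39. The 37S and 54S genes spread around 0, with medians of 0.02 and -0.01, and the cytosolic 40S genes lie lower, with a median of -1.19.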

How the data were processed

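Poly(A) RNA of 2 *PUF3Δ* and 2 WT libraries was sequenced. The authors mapped reads by SOAP2 with no more than 2 mismatches and deposited an RPKM for each of 6673 genes in every library. The submitters' notes name R64, but only 16.6% of matched genes had the coordinates of the R64 reference, while 97.1% had its length, so genes were joined by identifier (5984 matched, all 33 members) and positions and sequences came from R64 alone (RefSeq). The SOAP2 version, how multiply mapped reads were treated and whether strand was used are not given in the sources used here. RPKM times span summed to 1000000 in each library, and 100% of values were whole reads (tolerance 0.02 reads plus rounding), which gave the depths.

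PUF3Δ was set against WT using R 4.3.3 and limma 3.58.1 (trend, no replicate block, pseudocount 1, mean RPKM of at least 1, Benjamini-Hochberg adjustment over 5860 genes). A pseudocount understates changes of low genes. Levels, CD and elements were computed in Python 3.11.15. The members, lists and tests were chosen with earlier results of these data known. Values per library were given, by rule, for the 6 largest increases and decreases past the threshold without overlap, the 3 highest and lowest levels, and 6 genes with particular roles, and other members were named after their values were seen. Alternatives were another pseudocount, no filter, other scalings, a length correction, voom weights, a replicate block and leaving out each replicate.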

Additional observations from a re-analysis of the deposited data

How the results depend on the processing

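Of 363 values (33 genes under 11 alternatives), 281 kept direction and call. With the direction kept, 37 lost the call and 17 gained one. A further 28 changed sign, and some of these also lost or gained a call. The counts of 11 higher and 11 lower 37S genes became 20 and 1 under median-of-ratios scaling and 17 and 3 under quantile normalization, 5 were lower after length correction, and without 1 replicate they ran between 7 and 11 and between 6 and 12. The counts of 1108 higher and 3175 lower over all genes became 1984 and 1945 under median-of-ratios scaling and 1869 and 2003 under quantile normalization. Without 1 replicate, the counts over all genes ran between 826 and 1222 higher and between 2629 and 3147 lower. The 37S median of 0.02 became 0.41, 0.32 and 0.18 under median-of-ratios scaling, quantile normalization and length correction, and ran between -0.027 and 0.021 without 1 replicate. The cause of these shifts was not tested.

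Signs changed under median-of-ratios scaling for MRPS5 (0.033), RSM10 (0.18), MRPS18 (0.33), SWS2 (0.16), RSM18 (0.31), MRP10 (0.036), MRP13 (0.20), MRPS35 (0.0063), RSM27 (0.34) and YMR31 (0.12). They changed under quantile normalization for RSM10 (0.019), MRPS18 (0.11), RSM18 (0.26), RSM26 (0.0041), MRP13 (0.016) and RSM27 (0.15), and after length correction for NAM9 (-0.0061), RSM10 (0.040), MRPS18 (0.18), SWS2 (0.030), RSM18 (0.17), RSM22 (-0.0090) and RSM27 (0.21). Without 1 replicate, NAM9 ran between -0.031 and 0.077, MRPS18 between -0.13 and 0.017, MRPS28 between -0.027 and 0.094, MRP17 between -0.028 and 0.28, and RSM18 between -0.16 and 0.0036.

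With the replicate block, 10 of the 37S genes were higher and 11 lower, against 1067 and 3117 of the 5860 genes tested. Among the 37S genes, only MRP51 changed its call (adjusted p = 0.068 from limma). Same-numbered libraries did not deviate together (r = -0.014 over 5860 genes). The CD was 0.129 in *PUF3Δ* and 0.117 in WT on the log2 scale and, without MRPS12, 0.539 and 0.486. On the opposite strand, 5 genes had the element. With 2 libraries a strain, the calls with the smallest changes depend on single libraries.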

Other observations

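Across the 33 genes, the log2 fold change ran little with the level in WT (Spearman's rho -0.080), which shares its error with the fold change, or with the distance of the first element from the stop codon (-0.035 over 31 genes). Against the mean level over the 4 libraries, rho was 0.23. The study set the reduction of its targets against their level in *PUF3Δ*, and rho against that level is not given here. These values describe genes of the same libraries, which are not independent replicates.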
